A study of Homo sapiens with 6 samples.

Results

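The hypoxia-inducible factor (HIF) system was described here through 32 genes, which comprise the HIF alpha subunits, the enzymes that sense oxygen, VHL, and targets of HIF outside glycolysis. They were chosen by gene symbol from a table of 24000 gene entries, and each had 1 entry. Of the 32 members, 31 had a mean of at least 0.5 FPKM (fragment counts divided by transcript length and by the size of the library) over 6 tumors and were tested among 13287 such entries. VLDLR was under that mean and was not tested. The tumors were xenografts of PC-3, a human prostate cancer cell line that grows without androgens, implanted in the prostate of athymic male nude mice as a luciferase-expressing line. These mice lack T cells and keep myeloid cells. The vehicle group and the WCE group had 3 single tumors each. WCE is a standardized extract of the herb Wedelia chinensis, rich in luteolin, apigenin and wedelolactone, and was given by mouth. The labels of the sequenced tumors give 10 weeks of treatment and no dose.

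In cells with enough oxygen, the prolyl hydroxylases EGLN1, EGLN2 and EGLN3 mark the HIF alpha subunits, and VHL, the recognition part of a ubiquitin ligase, then has them destroyed. HIF1AN, an asparagine hydroxylase, blocks the activation domain of those that remain. In hypoxia these steps slow, the alpha subunit pairs with ARNT, and the pair binds a short DNA motif, the hypoxia response element, near genes of acid-base balance, mitochondrial turnover, iron and lipid handling and collagen folding. The control acts mainly on protein, so mRNA of HIF1A or EPAS1 does not measure the activity of the factor, whereas mRNA of the targets is a product of it among other inputs. EGLN3 is itself a target as well as a sensor.

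The core of the response element was searched as ACGTG or GCGTG on both strands, so that the palindrome CACGTG counts once on each strand, in the 250 bases before and 50 bases after each start site of RefSeq on GRCh38.p14. Of the 32 members, 20 were matched to a sequence. Those not matched were HIF1A, EGLN2, VHL, STC1, NDRG1, BNIP3L, AK4, KDM3A, CITED2, ZNF395, LOX and LOXL2. A core was found in 16 of the 20 (80%), against 48.4% of all 35116 promoters and 59.9% of the 13981 promoters of tested genes, and 11 of the 20 held at least 2 matches, as did 23.1% of all promoters and 31.1% of those of tested genes. The core is short and common, and a match describes letters, not binding. The bases before the start of 4 members are shown because their mRNA varied very differently between tumors. EGLN3 (chr14:33951075-33951324, minus strand), CA9 (chr9:35673678-35673927, plus strand) and ANKRD37 (chr4:185396591-185396840, plus strand) were among the members that varied most, and EGLN1 (chr1:231422288-231422537, minus strand) varied least. Capitals mark the core on either strand, and all are written 5′ to 3′ in the direction of the gene.
EGLN3: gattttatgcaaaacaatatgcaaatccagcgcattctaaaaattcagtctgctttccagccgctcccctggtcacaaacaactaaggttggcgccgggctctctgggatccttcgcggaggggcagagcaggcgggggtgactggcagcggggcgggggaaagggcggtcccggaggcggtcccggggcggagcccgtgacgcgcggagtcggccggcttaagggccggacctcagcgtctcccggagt
CA9: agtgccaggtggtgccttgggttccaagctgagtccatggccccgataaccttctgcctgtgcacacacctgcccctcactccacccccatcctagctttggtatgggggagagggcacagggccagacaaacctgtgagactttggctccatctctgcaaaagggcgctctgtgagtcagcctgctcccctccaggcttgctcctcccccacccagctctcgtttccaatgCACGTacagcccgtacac
ANKRD37: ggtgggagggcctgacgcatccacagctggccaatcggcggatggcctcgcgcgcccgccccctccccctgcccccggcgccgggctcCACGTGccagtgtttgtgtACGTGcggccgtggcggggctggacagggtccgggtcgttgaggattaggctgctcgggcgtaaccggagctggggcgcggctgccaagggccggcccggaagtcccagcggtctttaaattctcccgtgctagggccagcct
EGLN1: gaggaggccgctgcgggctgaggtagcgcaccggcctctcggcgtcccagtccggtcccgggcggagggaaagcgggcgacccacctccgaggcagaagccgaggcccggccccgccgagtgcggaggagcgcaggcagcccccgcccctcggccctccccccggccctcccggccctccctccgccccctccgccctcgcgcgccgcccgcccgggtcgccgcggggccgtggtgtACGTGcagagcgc
The match of CA9 began at position -18 and that of EGLN1 at position -13, with the base before the start at -1. ANKRD37 held a palindrome, counted on each strand, and 1 further match. None of these letters stood in the window of EGLN3.

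A pair of libraries with different treatment labels was nearly identical, which bears on every comparison of the groups. Over entries that averaged at least 50 FPKM, vehicle replicate 3 and WCE replicate 1 differed by a median of 0.0276 on the log2 scale, against 0.095 to 0.247 for the other 14 pairs, and all 15805 entries above 0 in WCE replicate 1 were also above 0 in vehicle replicate 3. Over the 31 tested members the pair differed by a median of 0.0399. Relative depth, with vehicle replicate 3 at 100%, was 25% in WCE replicate 1 and 64.8% to 85.2% in the other 4 tumors. The labels were kept, and the comparison of the groups is also given for vehicle replicates 1 and 2 against WCE replicates 2 and 3, called 2 tumors against 2. The epithelial keratin and EPCAM list summed to 1108 to 1386 FPKM in the 6 tumors, KLK3 was at 0 in all of them, and the red cell list summed to at most 0.285 FPKM. In bulk tumors, fewer cells of a type and less RNA per cell cannot be told apart.

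HIF1A and EPAS1, the oxygen-regulated alpha subunits, did not differ between groups by more than the spread of single tumors. HIF1A (chromosome 14, 62162119 to 62215807 on hg19, the human build in the submitters' notes) had 45.8, 39.2 and 49.6 FPKM in vehicle replicates 1 to 3 and 48.3, 37.5 and 40.3 FPKM in WCE replicates 1 to 3. The groups overlapped, and the means were 44.9 ± 5.22 and 42.0 ± 5.61 FPKM (SD, n = 3 each). The log2 fold change, WCE minus vehicle on the log2(FPKM + 1) scale throughout, was -0.09 (95% interval -0.40 to 0.21; adjusted p = 0.827, limma). HIF1A overlaps the antisense entry HIF1A-AS2 in the table. EPAS1, which encodes HIF-2 alpha, had 12.8, 15.7 and 18.7 FPKM in the vehicle tumors and 17.1, 9.60 and 13.2 FPKM in the WCE tumors. Its lowest value was that of WCE replicate 2 and its highest that of vehicle replicate 3, with WCE replicate 1 next. Its log2 fold change was -0.24 (95% interval -0.74 to 0.25; adjusted p = 0.713, limma).

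Among the sensors, EGLN1, EGLN2, HIF1AN and VHL varied less over the 6 tumors than EGLN3 did. EGLN1, the main sensor in most cells, had 7.60, 9.12 and 9.10 FPKM in the vehicle tumors and 8.66, 8.29 and 8.71 FPKM in the WCE tumors. Its spread, the difference between the highest and the lowest tumor in log2(FPKM + 1), was 0.23, the smallest of the members, and its log2 fold change lay between -0.25 and 0.24 (95% interval). EGLN2 is listed in 1 joined entry with MIA, MIA-RAB4B, RAB4B and RAB4B-EGLN2, so its own level cannot be separated. That entry had 28.2, 28.5 and 27.9 FPKM in the vehicle tumors and 29.3, 24.0 and 28.5 FPKM in the WCE tumors, and only WCE replicate 2 stood below the others. HIF1AN had 7.88, 7.13 and 8.74 FPKM in the vehicle tumors and 9.72, 7.45 and 7.63 FPKM in the WCE tumors. VHL had 36.9, 41.5 and 44.0 FPKM against 44.7, 36.9 and 35.0 FPKM. For both genes the vehicle and WCE values overlapped. Their spreads were 0.40 for HIF1AN and 0.34 for VHL, and 59.9% and 70.3% of all tested entries had a larger one. EGLN3 had 3.89, 7.12 and 14.2 FPKM in the vehicle tumors and 14.1, 4.24 and 12.95 FPKM in the WCE tumors. Vehicle replicate 3 and WCE replicates 1 and 3 stood at about the same level, and vehicle replicate 1 and WCE replicate 2 far below it, so that the spread was 1.63. The groups overlapped entirely, and the log2 fold change of EGLN3 was 0.29 (95% interval -0.88 to 1.46; adjusted p = 0.866, limma).

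All 4 targets of acid-base balance and hormone action reached a spread of at least 1 (8.35% of all tested entries). Their median spread was 1.18, against 0.45 over all tested entries. CA9, a membrane carbonic anhydrase that acidifies the space around hypoxic cells, had 10.0, 9.73 and 22.3 FPKM in the vehicle tumors and 25.4, 11.2 and 21.8 FPKM in the WCE tumors. Within each group the lowest tumor was at less than 1 in 2 of the highest, and the group means of 14.0 ± 7.20 and 19.5 ± 7.35 FPKM (SD, n = 3 each) lay closer to each other than the lowest and the highest tumor of either group did. The log2 fold change of CA9 was 0.47 (95% interval -0.40 to 1.34; adjusted p = 0.685, limma). CA12, a second membrane carbonic anhydrase, and ADM, which encodes the vasodilating peptide adrenomedullin, had spreads of 1.05 and 1.07. Their group means were 15.8 ± 4.84 and 15.3 ± 5.18 FPKM for CA12, and 25.4 ± 10.5 and 30.8 ± 8.09 FPKM for ADM (SD, n = 3 each). Both were highest in vehicle replicate 3 and WCE replicate 1.

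STC1, a glycoprotein hormone of calcium and phosphate balance (hg19, chromosome 8, 23699434 to 23712320), had its own pattern. It had 6.62, 13.4 and 12.7 FPKM in the vehicle tumors and 12.2, 39.1 and 41.1 FPKM in the WCE tumors. WCE replicates 2 and 3 stood far above all other tumors, and WCE replicate 1 stood among the vehicle tumors. The spread of 2.46 was the largest of the members. The log2 fold change was 1.30 ± 0.46 (SE; 95% interval 0.23 to 2.37), with an unadjusted p of 0.0233 and an adjusted p of 0.623 in limma, so that STC1 did not pass the adjusted threshold. With 2 tumors against 2 the log2 fold change was 1.97 ± 0.30 (SE; unadjusted p = 0.000893, adjusted p = 0.162, limma), and with no filter on low values the unadjusted p was 0.0762. The unadjusted p of STC1 was also above 0.05 without vehicle replicate 1 (0.0829), WCE replicate 2 (0.0662) or WCE replicate 3 (0.0794). WCE replicate 2, so high for STC1, had the lowest CA9 of its group. In the same tumors some human entries that serve as markers of other cell types were high. Host cells of these xenografts are mouse cells, and how their reads were treated is not given. The endothelial receptor gene KDR had 0.216, 0.247 and 0.529 FPKM in the vehicle tumors and 0.559, 1.59 and 5.12 FPKM in the WCE tumors, and TIE1 had 0.114, 0.653 and 0.519 FPKM against 0.542, 2.59 and 1.52 FPKM. The 8 endothelial markers summed to 2.85 to 6.90 FPKM in the vehicle group and 6.50 to 11.95 FPKM in the WCE group, and CDH5, TEK, CLDN5 and VWF were under 0.5 FPKM in every tumor. PDGFRA, a gene of fibroblasts, had 3.97 to 11.0 FPKM in the vehicle tumors and 4.02, 32.6 and 20.7 FPKM in the WCE tumors. Other markers of these lists did not share that pattern. COL1A1 (10.4 FPKM), COL3A1 (1.81 FPKM), LUM (0.338 FPKM) and FAP (0.479 FPKM) were each lowest of the 6 tumors in WCE replicate 2, and so was the fibroblast sum, and PECAM1 was highest in vehicle replicate 2 (2.95 FPKM). Whether these marker values come from the tumor cells or from mouse reads, and any link to STC1, was not tested.

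**Figure D1:**
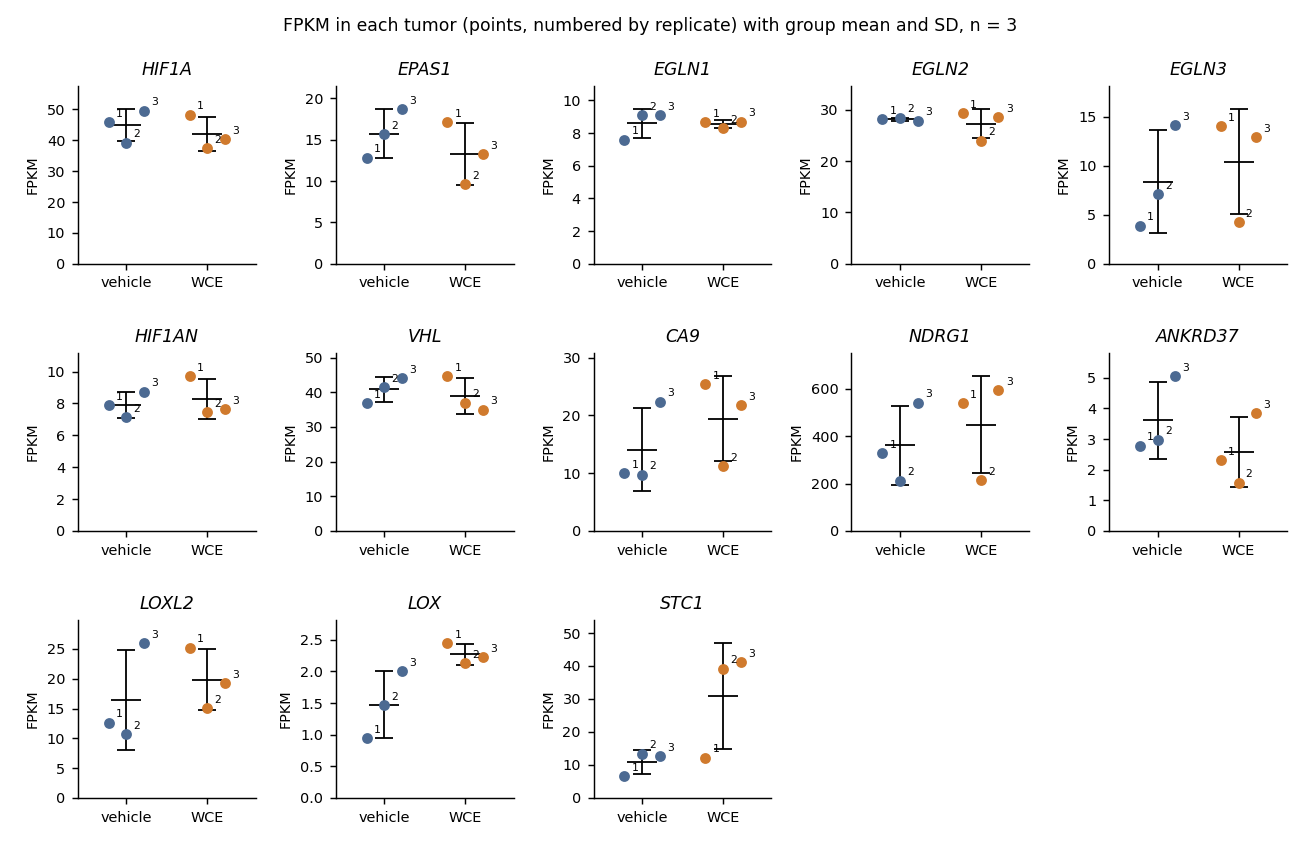
FPKM (vertical axes, each from 0) of 13 members in each of the 6 tumors, with points numbered by replicate, vehicle in blue, WCE in orange, and black bars for the group mean and SD (n = 3). EGLN3, CA9 and NDRG1 were high in vehicle replicate 3 and WCE replicates 1 and 3 and low in WCE replicate 2, EGLN1 was nearly level, and STC1 was high in WCE replicates 2 and 3 (39.1 and 41.1 FPKM).

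Among genes of stress and mitochondria, NDRG1, a stress-response gene of epithelial differentiation, had the highest mean FPKM of the members, with 329, 212 and 542 FPKM in the vehicle tumors and 539, 215 and 594 FPKM in the WCE tumors. It was about equally low in vehicle replicate 2 and WCE replicate 2 and highest in WCE replicate 3. The spread of NDRG1 was 1.48, and the log2 fold change was 0.29 (95% interval -0.76 to 1.34; adjusted p = 0.848, limma). BNIP3 and BNIP3L, receptors for the removal of mitochondria, differed in how much they varied. The group means of BNIP3 were 67.6 ± 20.0 FPKM for vehicle and 70.3 ± 21.0 FPKM for WCE, with a spread of 0.92. BNIP3L had 39.4 ± 7.39 and 42.7 ± 6.15 FPKM, with a spread of 0.44 (SD, n = 3 each). DDIT4, an inhibitor of mTOR signaling, reached a spread of 1.01, and AK4, a mitochondrial adenylate kinase, reached 0.91. FAM162A, a mitochondrial protein, and ERO1L, an oxidase that forms disulfide bonds in the endoplasmic reticulum, were lower in mean in the WCE group, with log2 fold changes of -0.14 and -0.35 (unadjusted p = 0.414 and 0.134, limma). All 7 genes of this group were higher in WCE replicate 3 than in WCE replicate 2 (46.4% of all tested entries), and 6 of the 7 were higher in vehicle replicate 3 than in both other vehicle tumors (31.4%).

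Genes of chromatin and transcription varied less, with a median spread of 0.54 over 6 members. The histone demethylase KDM3A had group means of 24.6 ± 4.82 and 28.0 ± 2.16 FPKM, and KDM4B, of the same class, had 7.39 ± 0.97 and 7.95 ± 0.97 FPKM (SD, n = 3 each). ZNF395, a transcription factor, had a spread of 0.56. CITED2, which competes with HIF for its coactivators, had the smallest spread of these genes (0.32) and was highest in WCE replicate 3 and lowest in WCE replicate 1. BHLHE40, a transcriptional repressor, was highest in vehicle replicate 1 and lowest in vehicle replicate 2, so that its extremes were both vehicle tumors. ANKRD37, an ankyrin repeat protein, had 2.78, 2.98 and 5.05 FPKM in the vehicle tumors and 2.30, 1.58 and 3.84 FPKM in the WCE tumors. It was the member that differed most between vehicle replicate 3 and WCE replicate 1 (log2 difference 0.87), and its locus overlaps the entry of UFSP2. Its log2 fold change was -0.38 ± 0.27 (SE; adjusted p = 0.663, limma).

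Enzymes of collagen modification were split. The prolyl hydroxylase subunits P4HA1 and P4HA2 and the lysyl hydroxylases PLOD1 and PLOD2 were all lowest in WCE replicate 2 and had log2 fold changes between -0.36 (PLOD2) and -0.08 (P4HA1), with adjusted p from 0.628 to 0.920 in limma. PLOD2 was low in both WCE replicate 2 and WCE replicate 3, with group means of 59.4 ± 6.66 and 47.3 ± 15.9 FPKM (SD, n = 3 each). The amine oxidases LOX and LOXL2, which cross-link collagen, were higher in mean in the WCE group. LOX (hg19, chromosome 5, 121398890 to 121414055) had 0.947, 1.47 and 2.00 FPKM in the vehicle tumors and 2.45, 2.13 and 2.22 FPKM in the WCE tumors. Every WCE tumor lay above every vehicle tumor, and WCE replicate 2 and vehicle replicate 3 were the nearest. The log2 fold change of LOX was 0.42 ± 0.17 (SE; 95% interval 0.02 to 0.83), with an unadjusted p of 0.0420 and an adjusted p of 0.623 in limma. With 2 tumors against 2 it was 0.54 (unadjusted p = 0.0253, adjusted p = 0.219, limma). With no filter the unadjusted p of LOX was 0.0678, and it was 0.0656 to 0.111 when any 1 tumor other than vehicle replicate 3 was left out (0.0107 without that one). LOXL2 had 12.7, 10.7 and 26.0 FPKM in the vehicle tumors and 25.2, 15.0 and 19.2 FPKM in the WCE tumors, and it overlaps the entry LOC100507156. Vehicle replicate 3 was its highest tumor and vehicle replicate 2 its lowest, and the log2 fold change was 0.33 (95% interval -0.42 to 1.07; adjusted p = 0.740, limma). Of the remaining members, VLDLR, a lipoprotein receptor, had 0.189 to 0.645 FPKM in the vehicle tumors and 0.288 to 0.663 FPKM in the WCE tumors, and it overlaps FLJ35024. TMEM45A, a transmembrane protein, had means of 30.4 ± 4.16 and 30.9 ± 6.98 FPKM (SD, n = 3 each).

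**Figure D2:**
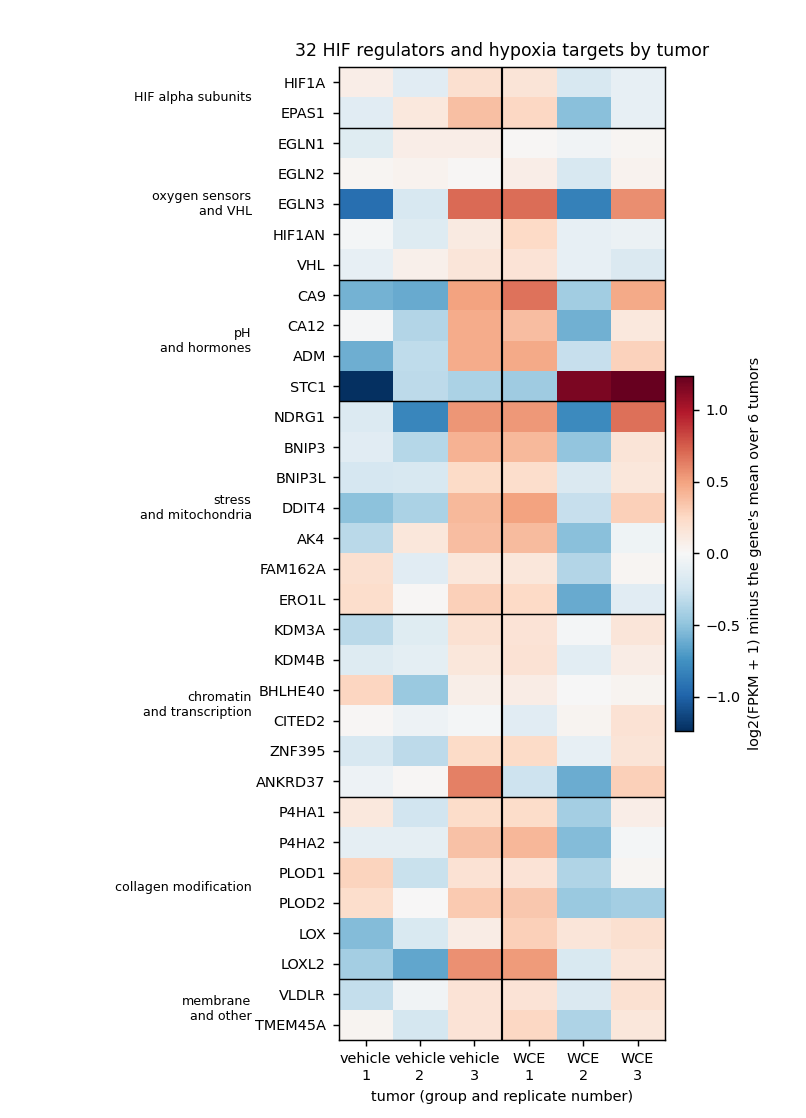
Each cell gives log2(FPKM + 1) of a member (vertical axis, grouped by role) in a tumor (horizontal axis) minus the mean of that member over the 6 tumors, red above and blue below, with a color scale that ends at the largest deviation. Vehicle replicate 3 and WCE replicate 1 are red for most targets, WCE replicate 2 is blue for most, and STC1 is reddest in WCE replicates 2 and 3.

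Variation between single tumors was wider for the members than for other entries. The spread was at least 1, that is at least 2-fold in FPKM + 1, in 9 of 31 members (EGLN3, CA9, CA12, ADM, STC1, NDRG1, DDIT4, ANKRD37 and LOXL2), against 8.35% of all tested entries. Among entries that averaged at least 5 FPKM it was reached by 8 of 29 members and by 6.33% of entries. The median spread was 0.79 over the members and 0.45 over all tested entries. The highest of the 6 tumors was vehicle replicate 3 for 11 members and WCE replicate 1 for 13, and these 24 of 31 compare with 21.8% of all tested entries. The lowest tumor was WCE replicate 2 for 14 members, vehicle replicate 1 for 9 and vehicle replicate 2 for 6, whereas each tumor was the lowest of 8.77% to 24.4% of all entries. With 1 library a tumor, these shares describe the tumors and carry no test.

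The same contrast appeared inside each treatment group as labeled. On the vehicle side it rests on vehicle replicate 3, which is near-identical to WCE replicate 1. Counts that use these libraries are therefore not independent of each other. Vehicle replicate 3 was above vehicle replicate 1 by at least 0.5 in log2(FPKM + 1) for 13 of 31 members (8.51% of all tested entries) and below it by as much for 0 (5.5%). It was above vehicle replicate 2 by that step for 11 members (3.35%) and below it for 0 (2.42%). EGLN3, CA9, ADM, NDRG1, BNIP3, DDIT4, ANKRD37 and LOXL2 were in both counts. Vehicle replicates 1 and 2 were more alike, with replicate 1 above by the step for NDRG1, BHLHE40 and PLOD1 (4.4% of entries) and below for EGLN3 and STC1 (7.31%). In the WCE group, replicate 3 was above replicate 2 by the step for 11 members (3.3%) and below it for 0 (0.993%), and 30 of 31 members were higher in replicate 3 by any amount (46.4%), with VHL the exception. These WCE tumors are both distinct from the near-identical pair. WCE replicate 1 was above replicate 2 for 17 members (8.02%) and below it for STC1 alone (5.84%). WCE replicate 3 was above WCE replicate 1 for STC1 and ANKRD37 (4.54%) and below it for PLOD2 (5.28%). The medians over the members were 0.44 for vehicle replicate 3 minus vehicle replicate 1, 0.39 for vehicle replicate 3 minus vehicle replicate 2 and 0.39 for WCE replicate 3 minus WCE replicate 2, where those over all entries were -0.01 in each case.

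**Figure D3:**
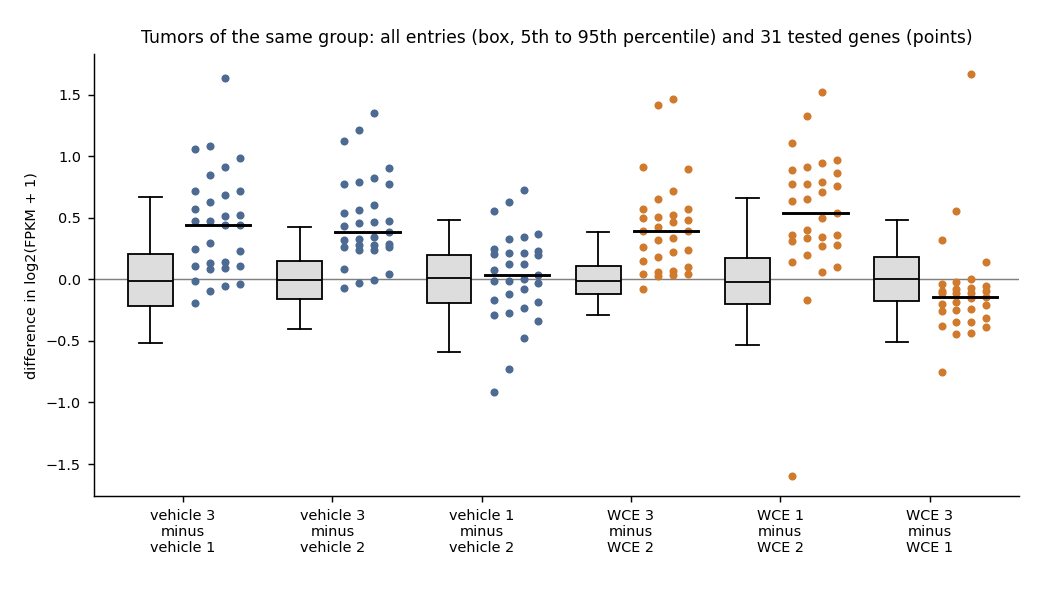
Differences in log2(FPKM + 1) between tumors of the same treatment group (vertical axis) for 6 pairs of tumors, with gray boxes for the quartiles and whiskers for the 5th to 95th percentile of 13287 entries, points for the 31 tested members (vehicle pairs in blue, WCE pairs in orange) and thick lines for their medians. The members lie mostly above 0 where vehicle replicate 3 is set against the other vehicle tumors and where WCE replicate 3 or 1 is set against WCE replicate 2.

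Other measures of the tumors ran beside this contrast in part. Fibroblast markers summed to 53.6, 58.5 and 62.2 FPKM in the vehicle tumors and 61.5, 45.9 and 74.9 FPKM in the WCE tumors, highest in the tumors high for CA9 and lowest in WCE replicate 2, and most of the sum was COL1A1 except in WCE replicate 2, while DCN and PDGFRB were under 0.5 FPKM in every tumor. Myeloid markers summed to 27.3 to 43.0 FPKM in the vehicle group and 41.8 to 47.0 FPKM in the WCE group, nearly all of it CD68, with CSF1R, AIF1, ITGAM and EMR1 under 0.5 FPKM in every tumor. Both lists are human entries in tumors whose host cells are mouse cells. Their source and their part in the members' values were not tested. Relative depth was greatest in vehicle replicate 3 and least in WCE replicate 1, and both were high for the members.

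Genes around the members, taken from lists by known role, were set against the same contrast between tumors. Of 20 further hypoxia targets, mainly glucose transport, glycolysis and angiogenesis genes, 18 were tested. Of these, 13 were highest in vehicle replicate 3 or WCE replicate 1 (21.8% of all tested entries). In WCE replicate 3, 17 were higher than in WCE replicate 2 (46.4% of all tested entries). None of the 18 had an unadjusted p under 0.05 between the treatment groups, and 12 were higher and 6 lower in mean in the WCE group. Of 11 partners of HIF and VHL, such as ARNT, the elongins TCEB1 and TCEB2, CUL2 and RBX1, 9 were tested. Of these 9, 0 were highest in vehicle replicate 3 or WCE replicate 1 (21.8% of all tested entries). In WCE replicate 3, 3 were higher than in WCE replicate 2 (46.4%), and 0 reached a spread of 1 (8.35%). With 9 genes, these counts are too few to set the list apart from all entries. Between the groups 4 of the 9 were higher and 5 lower in mean in the WCE group, and 0 had an unadjusted p under 0.05. ARNT2 and HIF3A were under 0.5 FPKM in every tumor.

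Between the treatment groups, no member passed the adjusted threshold of 0.05 (0 of 31), and 1 of the 13287 entries did (0.00753%). At an unadjusted p under 0.05, 2 members were higher in the WCE group (STC1 and LOX), or 6.45% of 31 where 3.78% of all entries were, and 0 were lower where 3.33% of all entries were. The groups did not overlap for LOX with WCE higher (6.37% of all entries) and for 0 members with WCE lower (6.4%). These shares are near those of all entries. The median log2 fold change was 0.05 over the members, with 17 above 0 and 14 below, and -0.01 over all entries. The intervals were wide where tumors varied. For EGLN3, CA9, STC1, NDRG1 and LOXL2 they reached past 1, and for ANKRD37 just past -1 (-1.004). For HIF1A, EGLN1, EGLN2 and VHL they stayed between -0.40 and 0.24.

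**Figure D4:**
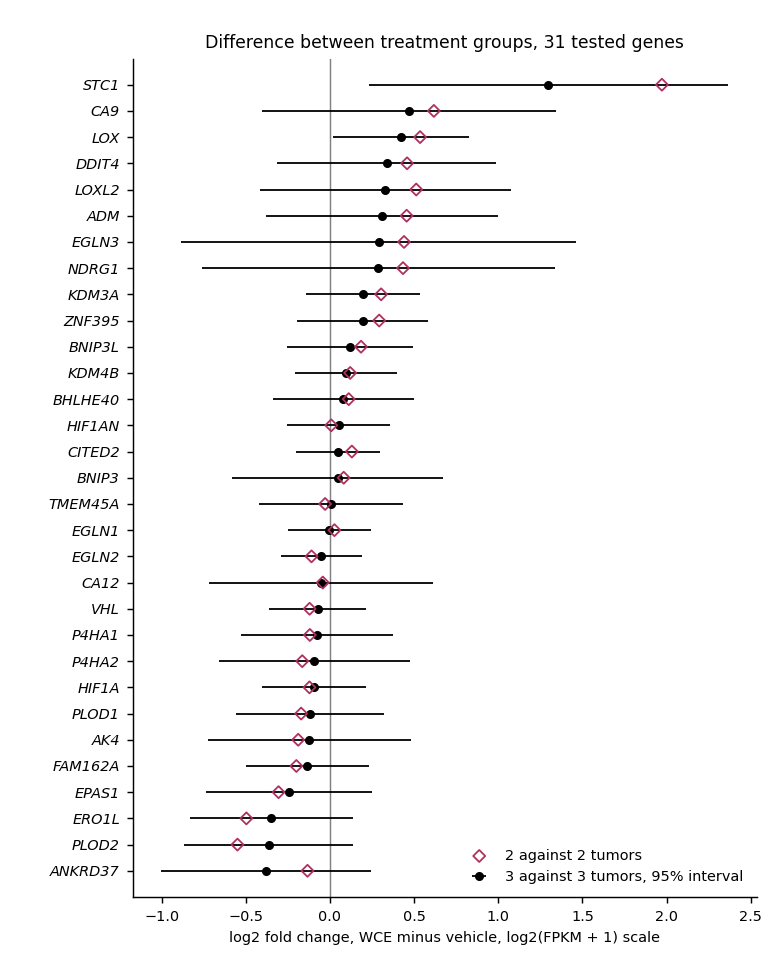
Log2 fold change of WCE minus vehicle (horizontal axis, log2(FPKM + 1) scale) for the 31 tested members in order of size, with black points and bars for 3 against 3 tumors and the 95% interval, and open diamonds for 2 tumors against 2. The interval leaves out 0 for STC1 and LOX alone, both above 0, and STC1 moves from 1.30 to 1.97 when the near-identical pair is left out.

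With 2 tumors against 2, the members again had no entry past the adjusted threshold (0 of 31, against 5 of 13255 entries or 0.0377%). At an unadjusted p under 0.05, STC1, LOX and LOXL2 were higher in the WCE group (3 of 31, where 8.92% of all entries were) and ERO1L and PLOD2 lower (2 of 31, where 9.63% were). LOXL2 had a log2 fold change of 0.51 (unadjusted p = 0.0230), ERO1L of -0.50 (unadjusted p = 0.0414) and PLOD2 of -0.55 (unadjusted p = 0.00456), all with adjusted p from 0.170 to 0.254 in limma. The groups of 2 did not overlap with WCE higher for 10 members (25.8% of all entries) and with WCE lower for ERO1L and PLOD2 (27.8%). The targets that separated the single tumors most did not separate these groups alike. All of CA9, NDRG1 and EGLN3 were high in WCE replicate 3 and low in WCE replicate 2. In WCE replicate 2, CA9 (11.2 FPKM) lay just above vehicle replicates 1 and 2 (10.0 and 9.73 FPKM). NDRG1 and EGLN3 in that tumor lay between vehicle replicates 1 and 2.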

How the data were processed

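RNA from 6 PC-3 tumors, 3 of vehicle-treated and 3 of WCE-treated mice, was sequenced after poly(A) selection with a stranded kit. The authors deposited 1 table of FPKM values per gene entry laid out as Cufflinks writes them. The submitters' processing notes name TopHat2 2.0.13, Cufflinks, hg19 and mm10. How reads of mouse cells in the tumors were treated, and any scaling between tumors, are not given in the sources used here. The depth in reads is unknown, which leaves no counting intervals, and relative depth was read from steps in low FPKM values.

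The 32 members were matched by symbol, with joined symbols split at commas. Members, lists and tests were chosen with earlier results of these data known. Values were changed to log2(FPKM + 1), and the 13287 entries that averaged at least 0.5 FPKM were compared with limma 3.58.1 (R 4.3.3, mean-variance trend, two-sided, Benjamini-Hochberg adjustment over all entries, threshold 0.05), a step that was tested on simulated data. Values in every tumor are given for the HIF alpha subunits, the oxygen sensors and VHL, for members with an unadjusted p under 0.05 or separated groups, and for the 6 members with the largest spread, and other members are given by role as means, spreads and counts. From other lists, genes with an unadjusted p under 0.05 are given. Genes named outside that rule were chosen after they had been seen. Alternatives were the pseudocount, filter, scaling, trend, tumor weights, a replicate block, each tumor left out in turn, and 2 tumors against 2. Promoter sequences are RefSeq's on GRCh38.p14.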

Additional observations from a re-analysis of the deposited data

How the results depend on the processing

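Depth is known only in relative terms, and 3 tumors a group limit every comparison. The count of members with an unadjusted p under 0.05 (2) was 0 with no filter on low values, 1 with a mean FPKM of at least 2, 5 with 2 tumors against 2, and 0 to 8 with 1 tumor left out. Leaving out vehicle replicate 3 gave the 8 (CA9, ADM, STC1, DDIT4, KDM3A, ZNF395, LOX and LOXL2), all higher in the WCE group. The count over all entries then rose from 944 to 1769, and its share of the entries is not given. That setting drops 1 of the near-identical libraries and keeps the other, WCE replicate 1, in the WCE group. Members with separated groups (1) numbered 0 with a mean FPKM of at least 2. They numbered 12 of 31 with 2 tumors against 2, where 25.8% of all entries were separated with WCE higher and 27.8% with WCE lower. With 1 tumor left out they numbered 2 to 8. The share over all entries is not given, and smaller groups separate more easily, so these counts cannot be set against the 1. Members with a spread of at least 1 (9) numbered 4 with 2 tumors against 2. That spread leaves out vehicle replicate 3 and WCE replicate 1, 1 or the other of which was highest for 24 members. The share over all entries in that setting is not given, so the 4 cannot be set against the 9. Entries with an unadjusted p under 0.05 (944) numbered 3201 with limma array weights, 2459 with 2 tumors against 2 and 228 to 2035 with 1 tumor left out. Entries with an adjusted p under 0.05 (1) numbered 0 with no filter, 5 with 2 tumors against 2 and 1 to 7 with 1 tumor left out, the 7 without WCE replicate 1. No member passed the adjusted threshold in any setting, and the lowest adjusted p was 0.0985. With the replicate block 1049 entries had an unadjusted p under 0.05 and 1 an adjusted one. With the block the unadjusted p was 0.000903 for STC1, 0.0669 for LOX and 0.0408 for ANKRD37 (log2 fold change -0.38). The labels do not say whether the numbers pair the tumors. The correlations of same-numbered tumors' deviations were -0.24, 0.16 and -0.093, and those of different-numbered tumors ran from -0.33 to 0.36. These cannot decide it, because the near-identical libraries are among them and each group holds 3 tumors. The sign of the log2 fold change held in all 8 settings with 6 tumors for 27 of 31 members and in all 15 settings for 16. It turned for EGLN1 with upper-quartile scaling (0.0053) and 2 tumors against 2 (0.026), for CA12 (0.058), P4HA1 (0.025) and PLOD1 (0.0070) with array weights, and for TMEM45A with 2 tumors against 2 (-0.029). With 1 tumor left out it ran from -0.082 to 0.036 for EGLN1, -0.10 to 0.036 for EGLN2, -0.10 to 0.78 for EGLN3, -0.058 to 0.12 for HIF1AN, -0.26 to 0.23 for CA12, -0.043 to 0.75 for NDRG1, -0.14 to 0.30 for BNIP3, -0.35 to 0.11 for AK4, -0.24 to 0.013 for FAM162A, -0.13 to 0.23 for BHLHE40, -0.031 to 0.13 for CITED2, -0.22 to 0.11 for P4HA1, -0.32 to 0.15 for P4HA2, -0.29 to 0.037 for PLOD1 and -0.12 to 0.20 for TMEM45A. The cause was not tested.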

Other observations

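Of 8 paralogs and partners of the collagen enzymes, all tested, 1 was highest in vehicle replicate 3 or WCE replicate 1 (21.8% of all tested entries), 5 were higher in WCE replicate 3 than in WCE replicate 2 (46.4%), and 1 reached a spread of at least 1 (8.35%). LOXL4, which is in all of these counts, had 2.14, 2.40 and 4.86 FPKM in the vehicle tumors and 5.22, 1.74 and 4.02 FPKM in the WCE tumors, and it was named after its values were seen. LEPRE1, a prolyl hydroxylase of fibrillar collagen, had 13.3, 16.1 and 17.5 FPKM in the vehicle tumors and 18.3, 22.7 and 20.7 FPKM in the WCE tumors. Every WCE tumor lay above every vehicle tumor, with a log2 fold change of 0.38 ± 0.13 (SE), an unadjusted p of 0.0213 and an adjusted p of 0.623 in limma. Between the groups 5 of the 8 were higher and 3 lower in mean in the WCE group, and 0 passed the adjusted threshold.

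Among the marker lists, LUM, a gene of fibroblasts, was lower in mean in the WCE group. It had 3.15, 1.94 and 0.599 FPKM against 0.670, 0.338 and 0.479 FPKM (unadjusted p = 0.0308, adjusted p = 0.623, limma). EPCAM, an epithelial adhesion gene, was also lower, with 305, 250 and 185 FPKM against 180, 138 and 122.9 FPKM (unadjusted p = 0.00889, adjusted p = 0.623, limma). The endothelial genes KDR and TIE1 were higher in mean in the WCE group, with log2 fold changes of 1.14 and 0.77. Their unadjusted p was 0.034 and 0.039, and the adjusted p was 0.623 for each (limma).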
